A study of Homo sapiens with 8 samples.

Results

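Tight junctions are the bands of contact that close the space between neighbouring epithelial cells, and the genes described here encode 9 of their main proteins: the claudins CLDN1, CLDN4, CLDN7, CLDN12, CLDN17 and CLDN23, occludin (OCLN), the scaffold protein ZO-1 (TJP1) and the junctional adhesion molecule JAM-A (F11R). They were taken by symbol as the claudins of squamous epithelium together with core partners, and all 9 were found among the 25369 genes of the deposited table. Claudins are membrane proteins that pair across the gap between cells and set which ions and small molecules pass. Occludin and JAM-A are further membrane proteins of the contact, and ZO-1 ties their cytoplasmic tails to actin. In stratified squamous epithelium such as that of the esophagus, working tight junctions lie in the upper living layers, although several claudins are made in all layers.

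The cells were EPC2-hTERT, a human esophageal epithelial line kept dividing by telomerase. Lentivirus was used to make stable lines with a control hairpin (shCtrl, 4 libraries) or with a hairpin against HIF1A (HIF1A-KD, 4 libraries), and both groups carry a hairpin vector. Cells were grown on filters with 0.4 µm pores for 2 days, kept in 1.8 mM calcium chloride for 5 days and exposed to air for 4 days, a regime under which keratinocytes form layers. The labels do not say whether the 4 libraries of a group came from separate cultures, so p-values measure the spread between these libraries, which may be technical. A DMSO vehicle and dimethyloxalylglycine are also named in the labels but are tied to no library. Claudin-1 has been described by others as part of a HIF-1α axis in esophageal epithelium, so the comparison asks how junction transcripts stand when HIF1A is lowered.

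Levels are in RPKM (reads scaled by gene length and by library total), so that genes of different length can be set side by side. Implied library totals ran from 38068729 to 65326907 reads. HIF1A was at 51.4 to 122 RPKM in shCtrl and at 19.0 to 54.8 RPKM in HIF1A-KD, lower in HIF1A-KD in all 4 numbers (40.8% of the shCtrl mean). Its log2 change was −1.34 (adjusted p = 0.319 by unpaired limma, and 0.0253 with the library number as a block). With the block and without number 1, 2 or 4 the adjusted p was 0.107, 0.187 or 0.0524 (limma), and without number 3 it was 0.0095. The authors' deposited table, made from the same libraries with an unnamed test, gives HIF1A a moderated log2 change of −1.29 and an adjusted p of 7e-12. All 9 squamous markers were present, with summed levels of 20474 to 26574 RPKM in shCtrl and 21684 to 27100 RPKM in HIF1A-KD. Most of each sum was KRT6A, KRT5 and KRT14, so the sums say little about the other markers. In shCtrl and HIF1A-KD, CDH1 averaged 159 and 95.2 RPKM (with overlap), KRT4 386 and 1521 RPKM and KRT13 253 and 801 RPKM. Of 5 leukocyte, 4 endothelial and 5 fibroblast markers, 1 each averaged at least 1 RPKM (CD14, VWF and COL1A1), and PTPRC and CD3E were at 0 in every library. Fibroblast markers summed to 21.2 to 27.7 RPKM in shCtrl and 14.1 to 19.2 RPKM in HIF1A-KD, nearly all of it COL1A1, with DCN and COL3A1 at or near 0. Endothelial markers summed to 0.652 to 15.4 and 1.39 to 12.6 RPKM, nearly all of it VWF, with CDH5 and PECAM1 at or near 0. No melanocyte marker of 4 averaged 1 RPKM. The 8 markers of the suprabasal layers together held 1863 to 6816 RPKM in shCtrl and 9946 to 12138 RPKM in HIF1A-KD, without overlap. SPRR3 was the largest part, with means of 2243 and 5784 RPKM. SPRR3, CRNN, KRT4 and KRT10 did not overlap between the groups (5.40% of all tested genes), while KRT1, KRT13, IVL and DSG1 overlapped. HIF1A-KD was lower for IVL in number 1 (269 against 372 RPKM) and for KRT1 and DSG1 in number 4. The 6 basal markers together held 8190 to 12212 and 9667 to 11922 RPKM, most of it KRT5 (means 5261 and 4977 RPKM) and KRT14 (4347 and 4762 RPKM). KRT15 averaged 208 and 479 RPKM, with overlap. COL17A1 averaged 288 and 256 RPKM, ITGB4 169 and 153 RPKM and TP63 49.3 and 47.5 RPKM. Markers of simple epithelium summed to 269 to 1127 and 1100 to 1730 RPKM, with overlap, and most of it was KRT19 (means 629 and 1377 RPKM). KRT18 averaged 62.4 and 72.4 RPKM, KRT8 went the other way at 19.5 and 15.1 RPKM, and CLDN3 and MUC5B were at or near 0. The part of these marker differences in the junction values was not tested. In RNA from whole cultures, a changed share of cells in a layer cannot be told apart from changed RNA per cell.

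Stretches before the transcription start of CLDN1 and CLDN4 are shown first, since CLDN1 is the member linked to HIF-1α by others and CLDN4 had the largest fitted difference among the abundant members. They are the 250 bases before the start in RefSeq (GRCh38.p14), 5′ to 3′ on the gene's strand, at chr3:190322447-190322696 (minus strand) for CLDN1 and chr7:73830746-73830995 (plus strand) for CLDN4. Capitals mark the core bound by HIF dimers, ACGTG or GCGTG on either strand, in CLDN1 and the AP-1 motif TGANTCA on either strand in CLDN4.
CLDN1: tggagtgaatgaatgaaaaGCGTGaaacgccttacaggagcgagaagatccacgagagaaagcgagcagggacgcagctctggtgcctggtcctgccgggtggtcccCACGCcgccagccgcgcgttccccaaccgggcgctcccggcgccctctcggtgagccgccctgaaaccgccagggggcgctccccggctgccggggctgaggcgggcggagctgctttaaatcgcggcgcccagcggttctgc
CLDN4: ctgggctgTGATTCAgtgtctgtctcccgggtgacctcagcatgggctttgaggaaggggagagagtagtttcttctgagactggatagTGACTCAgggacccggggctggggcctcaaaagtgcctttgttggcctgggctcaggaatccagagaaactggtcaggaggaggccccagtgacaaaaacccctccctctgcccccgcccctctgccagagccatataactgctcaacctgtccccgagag
The CLDN1 stretch held the core GCGTG at 231 and, on the opposite strand, at 143 bases before the start, and no TGANTCA. CLDN4 had TGANTCA at 242 and 161 bases before the start and no HIF core. A HIF core lay in 43.2% of all 35116 windows of this length in the table and TGANTCA in 6.57%. Of the members, 7 matched the table with 12 windows, of which 6 windows from 4 genes (CLDN1, CLDN7, OCLN and TJP1) held a HIF core and 1 (CLDN4) held TGANTCA. These matches describe letters only and do not show binding.

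No member passed the test in either fit. Unpaired limma on log2(RPKM + 0.1), adjusted by Benjamini and Hochberg over 11899 tested genes at a threshold of 0.05, called 0 of 9 members, against 0.0420% of all tested genes. With the library number as a block it again called 0 of 9, against 1.83%. At an unadjusted p of 0.05, limma without the block had 0 of 9 members (7.80% of all tested genes), limma-voom on reads recovered from the values 0 of 9 (7.64%), and limma with the block 4 of 9, which were CLDN4, CLDN12, CLDN17 and F11R (19.6%). All 9 members passed the filter on low values. Estimates were above 0 for 4 members and below 0 for 5, with a median of −0.02, while among all tested genes 58.7% were above 0 with a median of 0.06. The authors' deposited table, made from the same libraries, lists CLDN12 and CLDN17 at an adjusted p under 0.05, 2 of 9 members against 9.02% of its genes. A member that did not pass is not shown to be unchanged, and the intervals below give the sizes of change that the libraries leave possible.

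**Figure D1:**
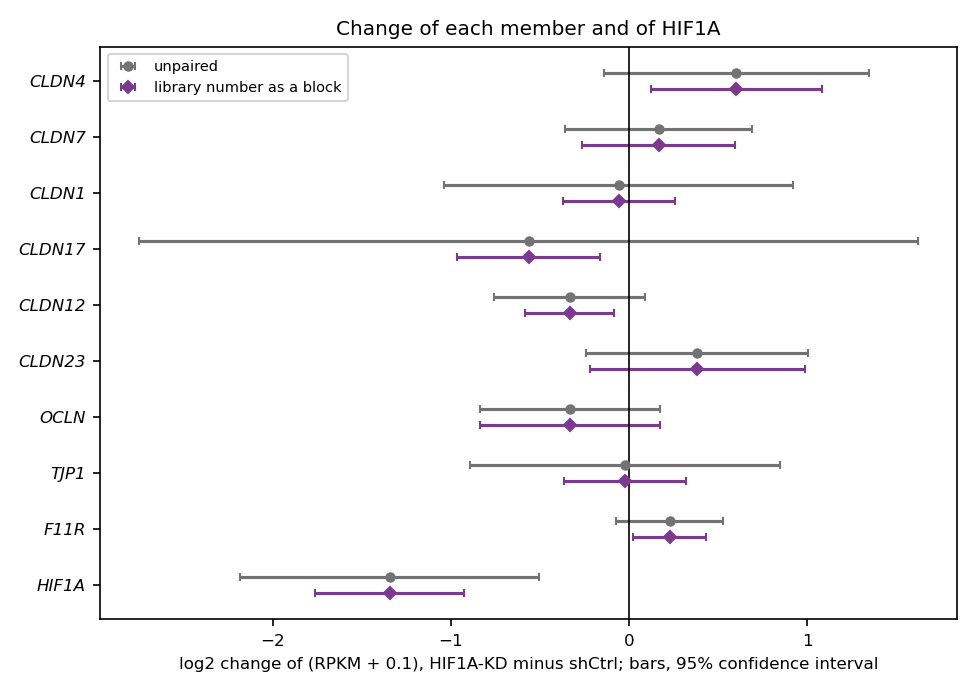
Log2 change of each member and of HIF1A, HIF1A-KD minus shCtrl, on the log2(RPKM + 0.1) scale, with 95% confidence intervals from the unpaired fit (circles) and from the fit with the library number as a block (diamonds). All unpaired intervals of the 9 members cross 0, and that of HIF1A lies below it.

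CLDN4, a claudin known to tighten the paracellular barrier, was the most abundant member. It held 270, 185, 119 and 178 RPKM in shCtrl 1 to 4 and 444, 279, 274 and 166 RPKM in HIF1A-KD 1 to 4. HIF1A-KD was higher in numbers 1, 2 and 3 and slightly lower in number 4, and the groups overlapped. The pairing of numbers 3 and 4 is uncertain, and HIF1A-KD 4 lay above shCtrl 3 and HIF1A-KD 3 above shCtrl 4. Means were 188 ± 62.3 and 291 ± 115 RPKM (mean ± SD, 4 libraries per group). The log2 change was 0.60 (SE 0.33, adjusted p = 0.761 by unpaired limma, 0.171 with the block), a ratio of 1.52 with a 95% interval of 0.907 to 2.55, or 1.09 to 2.12 with the block. Without number 4 the fit with the block gave a log2 change of 0.84 and came nearest to a call (adjusted p = 0.0529). The estimate was smaller without other libraries, at 0.37 without HIF1A-KD 1, 0.41 without shCtrl 3 and 0.41 with the block and without number 3. In the authors' deposited table CLDN4 has a moderated log2 change of 0.48 and an adjusted p of 0.0577. CLDN4 (hg19 chr7:73245193-73247023, plus strand) is counted as a single unbroken exon of 1831 bases. Its neighbour CLDN3, 60592 bases away on the same chromosome, was at most 0.0665 RPKM in any library.

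CLDN1, which is needed for the epidermal water barrier and lies at hg19 chr3:190023490-190040235 (minus strand), had nearly equal group means. Its level was 155, 56.4, 106 and 149 RPKM in shCtrl 1 to 4 and 146, 46.9, 139 and 124 RPKM in HIF1A-KD 1 to 4. Number 2 was the lowest in both groups, and the groups covered almost the same range. The group averages were 117 ± 45.7 and 114 ± 45.8 RPKM (mean ± SD, 4 libraries per group), so HIF1A-KD stood at 97.8% of shCtrl. The log2 change was −0.06 (SE 0.43, adjusted p = 0.998 by unpaired limma, 0.850 with the block). The 95% interval of the ratio ran from 0.488 to 1.90 unpaired and from 0.774 to 1.20 with the block. The sign rested on single libraries: without HIF1A-KD 2 the log2 change was 0.33, without shCtrl 1 it was 0.12 and without shCtrl 4 it was 0.10. CLDN16, the next claudin gene at this locus, held 0.0919 to 1.07 RPKM.

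CLDN7, a claudin also found along the lateral membrane outside the tight junction, varied least of the abundant claudins in shCtrl. It held 108, 140, 138 and 120 RPKM in shCtrl 1 to 4 and 148, 212, 101 and 126 RPKM in HIF1A-KD 1 to 4. HIF1A-KD 2 was the highest and HIF1A-KD 3 the lowest of all 8 libraries, so the shCtrl values lay inside the HIF1A-KD range. Means were 127 ± 15.5 and 147 ± 47.3 RPKM (mean ± SD, 4 libraries per group), with a log2 change of 0.17 (SE 0.23, adjusted p = 0.974 by unpaired limma, 0.644 with the block). Without HIF1A-KD 2 the log2 change was −0.03. CLDN7 lies at hg19 chr17:7163222-7166512 (minus strand).

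CLDN17, known to form an anion-selective pore, differed far more between library numbers than between the groups. It held 384, 82.4, 31.3 and 29.3 RPKM in shCtrl 1 to 4 and 202, 75.3, 16.3 and 24.5 RPKM in HIF1A-KD 1 to 4. The highest library was 13.1 times the lowest within shCtrl and 12.4 times within HIF1A-KD. HIF1A-KD was lower in 4 of 4 numbers, as were 10.7% of all tested genes. Means were 132 ± 170 and 79.5 ± 85.7 RPKM (mean ± SD, 4 libraries per group), with a log2 change of −0.56 (SE 0.97 unpaired and 0.17 with the block; adjusted p = 0.983 and 0.145, limma). The ratio of 0.677 had a 95% interval of 0.149 to 3.08 unpaired and 0.513 to 0.893 with the block. Unpaired and without shCtrl 1, the log2 change was 0.23, without HIF1A-KD 3 it was −0.03 and without HIF1A-KD 1 it was −1.24. With the block and without 1 number, the log2 change stayed between −0.71 and −0.44. In the authors' deposited table CLDN17 has a moderated log2 change of −0.57 and an adjusted p of 0.0372. The gene is a single exon of 731 bases at hg19 chr21:31538241-31538971 (minus strand), and CLDN8, 47352 bases away, was at most 0.0878 RPKM.

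CLDN12, an unusual claudin without the tail motif that binds ZO proteins, was lower in HIF1A-KD in 4 of 4 numbers. It held 16.9, 11.6, 12.2 and 14.8 RPKM in shCtrl 1 to 4 and 12.7, 10.1, 9.22 and 11.7 RPKM in HIF1A-KD 1 to 4. The groups overlapped, because HIF1A-KD 1 and 4 lay above the lowest shCtrl library. Means were 13.9 ± 2.46 and 10.9 ± 1.58 RPKM (mean ± SD, 4 libraries per group), and the log2 change was −0.33 (SE 0.19, adjusted p = 0.774 by unpaired limma, 0.159 with the block). The ratio of 0.794 had a 95% interval of 0.592 to 1.07, or 0.668 to 0.943 with the block. The authors' deposited table gives CLDN12 a moderated log2 change of −0.39 and an adjusted p of 0.0317. CLDN12 lies at hg19 chr7:90032648-90045268 (plus strand).

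CLDN23, a claudin of surface epithelial cells in the gut, was close to the detection filter of 0.5 RPKM. It held 0.635, 0.806, 1.19 and 0.858 RPKM in shCtrl 1 to 4 and 1.02, 1.15, 1.07 and 1.35 RPKM in HIF1A-KD 1 to 4, on 60 to 147 reads. HIF1A-KD was higher in numbers 1, 2 and 4, and shCtrl 3 lay within the HIF1A-KD range. Means were 0.873 ± 0.234 and 1.15 ± 0.142 RPKM (mean ± SD, 4 libraries per group), with a log2 change of 0.38 (SE 0.28, adjusted p = 0.848 by unpaired limma, 0.445 with the block).

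**Figure D2:**
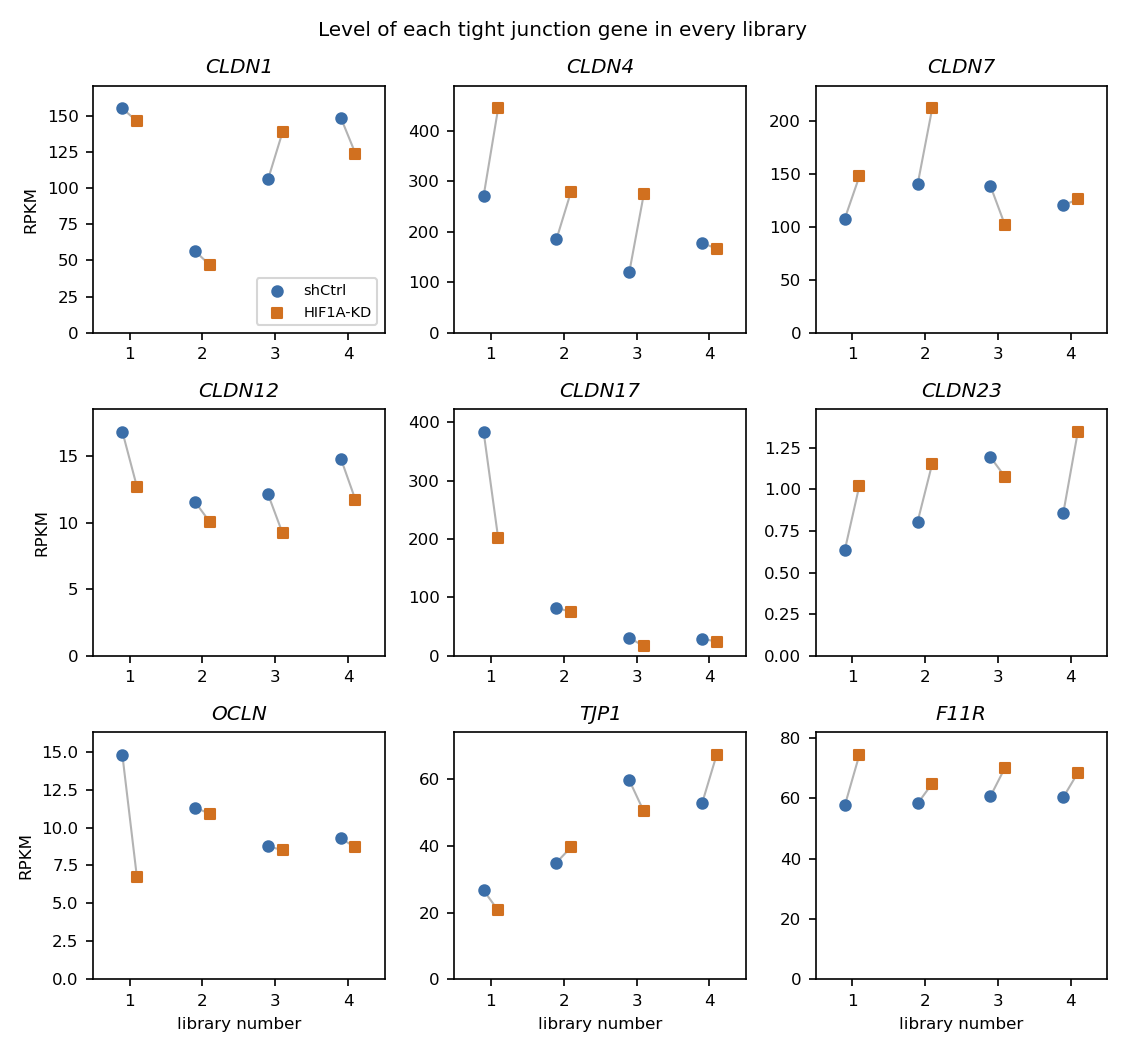
RPKM of the 9 members (vertical axes, each from 0) by library number (horizontal axes), with shCtrl as circles and HIF1A-KD as squares, joined by number. F11R is the member whose groups do not overlap (57.7 to 60.8 against 65.0 to 74.5 RPKM), and CLDN17 ranges from 16.3 to 384 RPKM.

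Among the other membrane proteins, JAM-A had the tightest values. F11R, an immunoglobulin-type adhesion protein, held 57.7, 58.4, 60.8 and 60.4 RPKM in shCtrl 1 to 4 and 74.5, 65.0, 70.3 and 68.6 RPKM in HIF1A-KD 1 to 4. Every HIF1A-KD library lay above every shCtrl library, which was so for 1 of 9 members (F11R) and for 5.40% of all tested genes in either direction (3.27% with HIF1A-KD higher and 2.13% with it lower). It was also higher in 4 of 4 numbers, as were 18.6% of all tested genes, and 4 of 9 members went 1 way in all 4 numbers, against 29.3%. Under median-of-ratios scaling (library sizes matched on the median gene) the groups still did not overlap, by a narrow gap of 63.7 in the highest shCtrl to 64.5 in the lowest HIF1A-KD library. Means were 59.3 ± 1.51 and 69.6 ± 3.96 RPKM (mean ± SD, 4 libraries per group). The log2 change was 0.23 (SE 0.13, adjusted p = 0.781 by unpaired limma, 0.211 with the block), a ratio of 1.17 with a 95% interval of 0.952 to 1.44, or 1.02 to 1.35 with the block. In the unpaired fit the SE was moderated towards that of other genes, and the authors' deposited table gives F11R an adjusted p of 0.413. F11R lies at hg19 chr1:160965001-160991133 (minus strand).

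OCLN, which encodes occludin, was a low member and lower in HIF1A-KD in 4 of 4 numbers, mostly by small amounts. It held 14.8, 11.3, 8.76 and 9.29 RPKM in shCtrl 1 to 4 and 6.72, 10.9, 8.51 and 8.68 RPKM in HIF1A-KD 1 to 4. Number 1 differed most (log2 difference −1.13), while numbers 2 to 4 differed by −0.05, −0.04 and −0.10. Means were 11.04 ± 2.74 and 8.71 ± 1.72 RPKM (mean ± SD, 4 libraries per group), with a log2 change of −0.33 (SE 0.22, adjusted p = 0.832 by unpaired limma, 0.433 with the block). Without number 1 the fit with the block gave −0.06. OCLN (hg19 chr5:68788119-68853931, plus strand) has a partial copy in the same chromosome band, so its reads may have been split and its level is uncertain.

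TJP1, which encodes ZO-1, had close group means and a spread that followed the library number. It held 26.7, 35.0, 59.8 and 52.8 RPKM in shCtrl 1 to 4 and 20.6, 39.6, 50.4 and 67.4 RPKM in HIF1A-KD 1 to 4. HIF1A-KD was lower in numbers 1 and 3 and higher in numbers 2 and 4. Means were 43.6 ± 15.4 and 44.5 ± 19.6 RPKM (mean ± SD, 4 libraries per group), with a log2 change of −0.02 (SE 0.39, adjusted p = 0.999 by unpaired limma, 0.953 with the block). The 95% interval of the ratio was 0.539 to 1.80 unpaired and 0.777 to 1.25 with the block. Its sign also turned with single libraries, to 0.31 without HIF1A-KD 1, 0.15 without shCtrl 3 and 0.10 without shCtrl 4. TJP1 lies at hg19 chr15:29992357-30114706 (minus strand).

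Libraries numbered 1 and 2 parted from those numbered 3 and 4 across all genes, on the first principal component (41.9% of the variance), and 27.9% of all tested genes did not overlap between these sets. Among the members, 2 of 9 did not overlap, CLDN17 and TJP1, a share near that of all genes. CLDN17 averaged 186 RPKM in the 4 libraries numbered 1 or 2 and 25.4 RPKM in the 4 numbered 3 or 4, without overlap. TJP1 averaged 30.5 and 57.6 RPKM, also without overlap, and the other 7 members overlapped. Genes above 0 RPKM parted the same way, at 16580 to 17205 in libraries numbered 1 or 2 and 13799 to 15347 in the others. Its part in the CLDN17 and TJP1 values was not tested. What the number stands for is not in the labels, and these values are a description with no test.

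By level, the members fell into an abundant and a scarce set, with CLDN4 (mean over 8 libraries 240 RPKM), CLDN7 (137), CLDN1 (115), CLDN17 (106), F11R (64.4) and TJP1 (44.0 RPKM) above CLDN12 (12.4), OCLN (9.87) and CLDN23 (1.01 RPKM). CLDN4 was the highest member in 4 of 4 HIF1A-KD and in 2 of 4 shCtrl libraries, where CLDN17 led in shCtrl 1 and CLDN7 in shCtrl 3. CLDN4 exceeded CLDN7 in 7 of 8 libraries. CLDN7 exceeded CLDN1 in only 5 of 8. CLDN1 exceeded CLDN17 in 4 of 8 and CLDN17 exceeded F11R in 4 of 8, and both orders followed the library number. CLDN17 lay above CLDN1 and F11R in every library numbered 1 or 2 and below both in every library numbered 3 or 4. F11R lay above TJP1, and TJP1 above CLDN12, in all 8. CLDN12 lay above OCLN in 7 of 8.

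Both the size and the makeup of the claudin pool varied between libraries. The 6 claudin members summed to 935, 476, 409 and 492 RPKM in shCtrl 1 to 4 and to 954, 624, 542 and 454 RPKM in HIF1A-KD 1 to 4. Number 1 was the highest in each group. CLDN4 made up 33.3 ± 4.97% of the pool in shCtrl and 44.6 ± 5.89% in HIF1A-KD (mean ± SD, 4 libraries per group), with ranges of 28.9 to 38.8% and 36.6 to 50.7% that overlapped. CLDN1 made up 21.2 ± 8.43 and 19.0 ± 9.29%, CLDN7 24.8 ± 9.67 and 23.98 ± 8.43%, and CLDN17 18.0 ± 16.2 and 10.4 ± 8.13%. CLDN17 alone was 41.1% of the pool in shCtrl 1 and 3.02% in HIF1A-KD 3. Its mean share was 10.3% without shCtrl 1 and 6.82% without HIF1A-KD 1, and in reads without length scaling it was 7.10% in shCtrl and 3.84% in HIF1A-KD. The ratio of CLDN4 to CLDN1 RPKM was 1.74, 3.27, 1.12 and 1.19 in shCtrl 1 to 4 and 3.03, 5.95, 1.97 and 1.34 in HIF1A-KD 1 to 4, higher in HIF1A-KD in 4 of 4 numbers with overlapping groups. This ratio was picked after the values were seen and has no test.

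**Figure D3:**
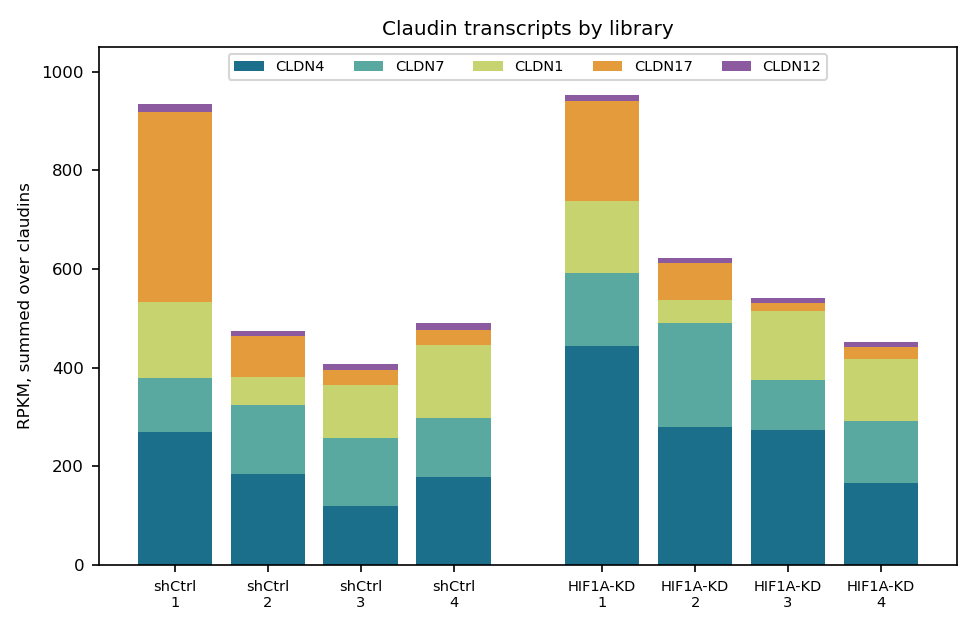
Stacked RPKM (vertical axis, from 0) of the 5 claudin members above 5 RPKM in each library (horizontal axis). CLDN4 takes 28.9 to 38.8% of the claudin total in shCtrl and 36.6 to 50.7% in HIF1A-KD, and CLDN17 is prominent in shCtrl 1 and HIF1A-KD 1.

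How members varied together was read from log2 values after each group's mean was taken away, over 8 libraries in which the number, depth and any other difference between libraries act on all genes at once. CLDN4 and CLDN17 varied alike (Pearson r = 0.801), and both ran against TJP1 (r = −0.934 and −0.915). CLDN1 ran against CLDN7 (r = −0.792), and OCLN against F11R (r = −0.880). These pairs were picked, after the values were seen, as the strongest among all pairs of members above 5 RPKM, and they have no p. CLDN17 and TJP1 are also the members that parted fully between numbers 1 and 2 and numbers 3 and 4.

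Among 7095 genes averaging at least 5 RPKM, the closest to CLDN1 by the same measure were IRF2BP2 (r = 0.993), DOCK1 (0.991) and OSBPL3 (0.990). TSC22D4 (r = 0.992), RPS6KB2 (0.990) and B3GALT6 (0.990) were closest to CLDN4. CLDN7 was most like STAP2 (r = 0.990), DIAPH1 (0.952) and PRR15L (0.942). CLDN12 was most like GTF2F2 (r = 0.952), ZFAS1 (0.931) and C19orf24 (0.923), and CLDN17 most like FJX1 (0.996), SMPD3 (0.994) and ZMYND19 (0.993). For OCLN the closest were UPP1 (r = 0.941), TGFA (0.934) and SON (0.916), for TJP1 PIP4K2A (0.993), USP7 (0.992) and DRAP1 (0.987), and for F11R TRIM2 (0.968), MEIS1 (0.926) and RUFY1 (0.923). With 8 libraries and 7095 genes searched, high values are found for any gene.

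Of 55 other genes of the junction found in the table, 32 passed the filter and 0 passed either fit over all genes. At an unadjusted p of 0.05 there were 3 of 32 in unpaired limma, 4 in limma-voom and 7 with the block, against 7.80%, 7.64% and 19.6% of all genes tested in each, so these counts lie near the background. Estimates were above 0 for 18 and below 0 for 14, with a median of 0.06, the same as over all tested genes to this precision. The authors' deposited table lists 37 of these genes, 3 of them at an adjusted p under 0.05, against 9.02% of all its genes (PARD3 and MAGI3 higher, and WWC1 lower; WWC1 is named after its value was seen).

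Of 17 other claudins 2 passed the filter, CLDN15 and CLDN16, and 5 were at 0 in every library. The highest level among the 15 left out was 0.685 RPKM, for CLDN9, and the endothelial claudin CLDN5 reached at most 0.0535 RPKM. The claudin pool of these cultures was thus nearly all CLDN1, CLDN4, CLDN7, CLDN12 and CLDN17 in each library. Of proteins at tricellular contacts, where 3 cells meet, the receptor LSR held 78.7 ± 15.1 and 73.1 ± 12.6 RPKM (mean ± SD, 4 libraries per group; log2 change −0.10, adjusted p = 0.985, limma). The MARVEL family genes MARVELD2 and MARVELD3 also had no call. In the JAM family CXADR was the only 1 of 4 tested.

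Among the scaffold genes, TJP3, which encodes ZO-3, a form restricted to epithelia, held 3.49, 7.05, 13.9 and 10.9 RPKM in shCtrl 1 to 4 and 14.6, 16.7, 13.1 and 14.9 RPKM in HIF1A-KD 1 to 4. The lowest HIF1A-KD library lay below shCtrl 3, and HIF1A-KD was higher in numbers 1, 2 and 4. Its log2 change was 0.91 (SE 0.38, adjusted p = 0.593 by unpaired limma, 0.229 with the block). The estimate was 0.53 without shCtrl 1, 1.64 in libraries 1 and 2 alone and 0.18 in libraries 3 and 4 alone.

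The inverted MAGUK scaffolds MAGI1 and MAGI3 were low, with log2 changes of 0.92 and 0.87 (adjusted p = 0.661 and 0.593 by unpaired limma, 0.211 and 0.113 with the block). CGNL1, which encodes paracingulin, had −0.49 (adjusted p = 0.751, limma), or −0.0056 in libraries 1 and 2 alone and −0.98 in libraries 3 and 4 alone. The abundant scaffold-linked genes AMOTL2 (−0.06, adjusted p = 0.997, limma) and YBX3, a DNA-binding partner of ZO-1 (0.06, adjusted p = 0.993, limma), had estimates near 0. YBX3 has processed copies in the genome, so its level is uncertain. Among polarity genes PARD3, which places the junction at the upper side of the cell, held 14.5, 12.6, 16.1 and 18.2 RPKM in shCtrl 1 to 4 and 21.6, 19.2, 24.2 and 20.8 RPKM in HIF1A-KD 1 to 4. Its groups did not overlap, also under median-of-ratios scaling, and it was the only 1 of the 32 tested genes for which this held in RPKM (against 5.40% of all tested genes). The log2 change of PARD3 was 0.49 (SE 0.17, adjusted p = 0.445 by unpaired limma, 0.0902 with the block). CRB3, the apical Crumbs protein, had −0.20 (adjusted p = 0.966, limma).

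**Figure D4:**
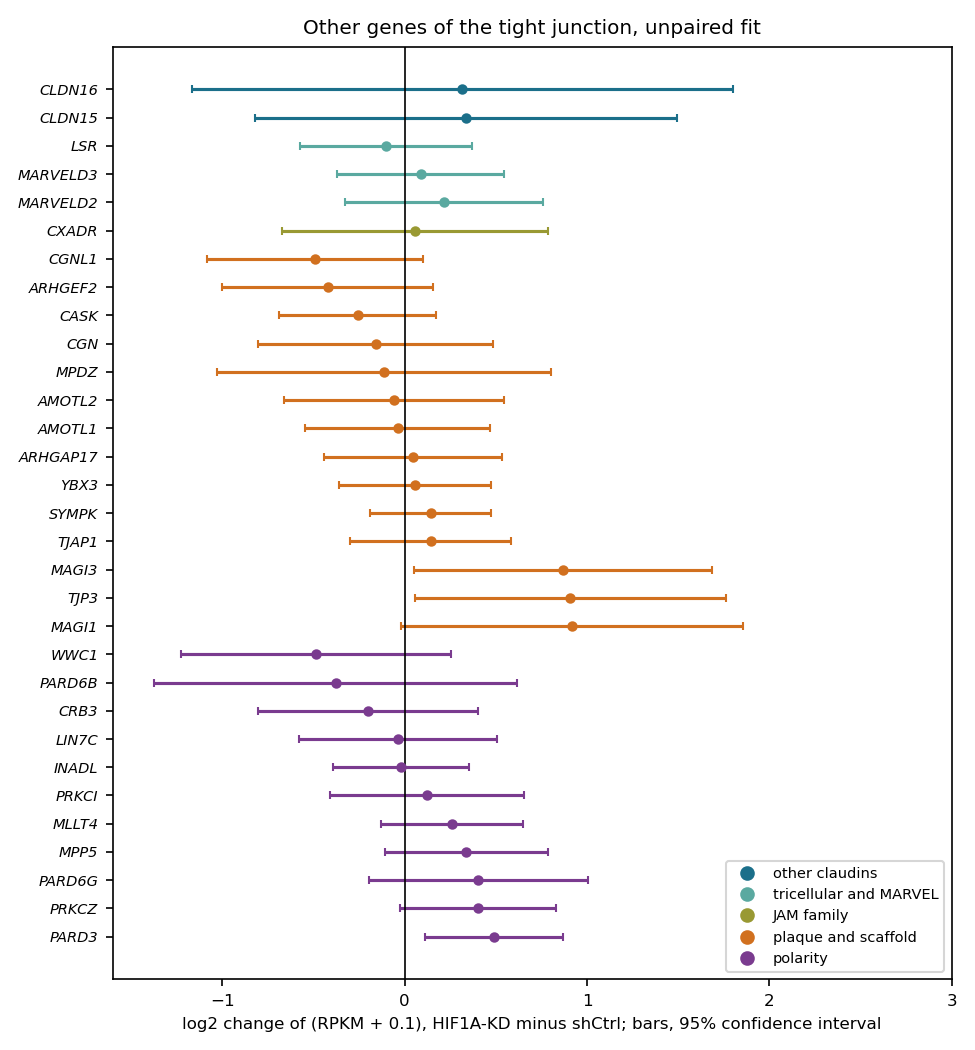
Log2 change (horizontal axis, HIF1A-KD minus shCtrl, log2(RPKM + 0.1) scale) with 95% confidence intervals from the unpaired fit for 31 of the 32 tested other genes of the junction, coloured by role. The estimates of TJP3 (0.91), MAGI1 (0.92) and MAGI3 (0.87) lie farthest to the right, and none of the 31 genes shown passed the adjusted test.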

How the data were processed

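RNA was sequenced from 8 libraries, grouped by sample title. The submitters' processing notes name, with no role or order, the aligner TopHat2 (2.0.13) with Bowtie2 (2.2.3.0), the counter HTSeq (0.6.1), SAMtools (1.3.1), Picard (1.129), FastQC (0.11.5) and bcl2fastq. Builds hg19 and hg38 are both named, and haplotype contig names in the deposited table are those of hg19. Strand use in counting is unstated there and in the labels, so overlapping antisense reads cannot be told apart. The authors deposited RPKM per gene and library, in a table named for raw counts. Multiplied by gene length (a column of the authors' table, in bases; 597 cells unreadable), 100% of low values were whole multiples of a step within 0.01 read. The authors' second deposited table holds moderated fold ratios, their log2 and p-values, from a tool that no source here names. Its header does not name the direction: its log2 has the sign of HIF1A-KD minus shCtrl for 1155 of 1155 genes below its threshold that were tested here, and is given that way.

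The 11899 genes that reached 0.5 RPKM in 4 or more libraries were fitted on the scale log2(RPKM + 0.1) using limma (3.58.1, under R 4.3.3), two-sided, with robust and trended moderation; this scale understates changes of low genes. A fold change is on that scale, and a ratio is 2 raised to it. A paired fit added the library number as a block. Deviations from the group means correlated over genes between same-numbered libraries (0.754, 0.730, 0.252 and 0.257), so the number was taken as pairing them, from the data and not the labels. For numbers 3 and 4 this is uncertain, since shCtrl 3 with HIF1A-KD 4 gave 0.463 and shCtrl 4 with HIF1A-KD 3 gave 0.613. Fits were tested on simulated data, where the blocked fit called more unchanged genes than its threshold allows. Members and lists were chosen with earlier results of these data known. Genes named besides the members were HIF1A, other junction genes that passed a fit, the 5 most abundant and the 5 with the largest change of the rest, the 3 genes most like each member above 5 RPKM, and markers; 1 of the abundant genes is not reported here. Alternatives were pseudocounts, filters, scaling, voom, the block, the split of numbers 1 and 2 from 3 and 4, and leaving out libraries.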

Additional observations from a re-analysis of the deposited data

Results flagged for a closer look

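CLDN17 in shCtrl 1 held 384 RPKM and stood far from the other shCtrl libraries, at 29.3 to 82.4 RPKM: its gap to the nearest was 0.850 of the group's range, above Dixon's 95% limit for 4 samples. It was the only 1 of 20 groups of 4 values (the members and HIF1A, in each group) to do so, and chance gives about 1 in 20. HIF1A-KD 1 was also the highest of its group, at 202 RPKM.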

How the results depend on the processing

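The counts of members and of other junction genes called stayed at 0 under all 23 alternatives, of which the 4 that leave out a number from the blocked fit were added after the data were seen. The replicate block changed no call of a member or other junction gene and called HIF1A, as did the block with median-of-ratios scaling (−1.41) and the block without number 3 (−1.55). The count over all genes, 5 in the main setting, was 3 at a pseudocount of 0.01 or of 1 and with limma-voom, 1 with no filter, 8 under median-of-ratios scaling, 218 with the block and 256 with the block and that scaling, 102 with the split of numbers as a term, and 0 in libraries 1 and 2 alone. Without 1 library it ran from 0 to 3, and with the block and without 1 number from 1 to 195 (33, 1, 195 and 182 without numbers 1, 2, 3 and 4). CLDN4, CLDN12, CLDN23, OCLN and F11R kept their direction under every alternative run, except that CLDN23 has no value under the filter of at least 2 RPKM. In libraries 3 and 4 alone the log2 changes of CLDN1, CLDN7 and TJP1 turned to 0.064, −0.19 and 0.052, and in libraries 1 and 2 alone those of AMOTL2 and CRB3 to 0.13 and 0.095. In the blocked fit CLDN1 turned to 0.014 without number 2 and 0.013 without number 4, TJP1 to 0.094 without number 1 and 0.053 without number 3, and AMOTL2 to 0.20 without number 4. YBX3 turned to −0.017 under median-of-ratios scaling, with or without the block. When libraries were left out, with or without the block, the range was −0.37 to 0.33 for CLDN1, −0.027 to 0.37 for CLDN7, −1.24 to 0.23 for CLDN17 (−0.71 to −0.44 with the block), −0.26 to 0.31 for TJP1, −0.25 to 0.035 for LSR, −0.27 to 0.20 for AMOTL2, −0.025 to 0.16 for YBX3 and −0.43 to 0.0084 for CRB3. The cause was not tested. Counted in reads without length scaling, CLDN1 was 34.5 and 30.2% of the claudin members in shCtrl and HIF1A-KD, as it is a longer gene than CLDN4. Per library, CLDN23 rested on 60 to 147 reads and CLDN17 on 564 or more.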
